A study of Mus musculus with 32 samples.

Results

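Donor CD4 T cells recovered from syngeneic recipients were compared with CD4 T cells of the same donor strain before transfer, using 5 of the 31 libraries of a study of graft-versus-host disease in mice. The members were chosen by their labels: 3 CD4 libraries of syngeneic recipients (called JL019-1, JL019-2 and JL027) and 2 CD4 libraries at day 0 (JL019 and JL027). The day 0 cells were sorted from spleen and lymph nodes of C57Bl6 mice before transplantation. The syngeneic cells were sorted from the same organs of syngeneic control recipients labelled untreated, whereas the graft-versus-host model of the series moves C57Bl6 cells into Balb/c mice. Sample titles place them at day 6, whereas the series text speaks of 8 days. The labels name no age, no transgene and no conditioning of the recipients, and the degree of lymphopenia was not measured here. Nothing in the labels says that the libraries came from separate animals, so p-values measure only the spread between libraries, which may be technical. For RNA this spread was taken within the groups of all 31 libraries, not of these 5 alone. Each library was measured by bulk RNA sequencing (16741 genes, as normalised counts) and by sequencing of the T-cell receptor (TCR) alpha (TRA) and beta (TRB) chains.

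When T cells are moved into a host with few lymphocytes, they can divide without a foreign antigen, a process called homeostatic or lymphopenia-induced proliferation. A slow form depends on the cytokine interleukin 7 and on contact with self peptides on MHC molecules. A faster form, linked to intestinal microbes, gives rise to cells with an effector or memory phenotype. Naive CD4 T cells rest outside the cell cycle, carry the homing receptor CCR7, and are kept quiescent by transcription factors such as KLF2, FOXO1, LEF1 and TCF7.

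One library stood apart and goes against its label. Cd4, the co-receptor by which the cells were sorted, was 14693 and 14778 normalised counts in the day 0 libraries JL019 and JL027, and 16526, 1659 and 14576 in the syngeneic libraries JL019-1, JL019-2 and JL027. Cd8a, the co-receptor of the other T cell lineage, was 26.3 and 49.9 at day 0 and 58.2, 1956 and 114 in the syngeneic libraries. The library labelled CD4 syngeneic JL019-2, written JL019-2 below, thus had the lowest Cd4 and the highest Cd8a of the 5. The summed value of 16 CD4 T cell markers was 312374 and 286264 at day 0, 289050 in JL019-1, 101875 in JL019-2 and 257418 in JL027. The 18 neutrophil markers summed to 1043 and 1123 at day 0, to 139675 and 126257 in JL019-1 and JL027, and to 5188910 in JL019-2. They held 0.005% of the summed values in each day 0 library, 0.543% and 0.519% in JL019-1 and JL027, and 15.2% in JL019-2, and 14 and 18 of the 18 were above 0 at day 0. The 20 monocyte and macrophage markers found in the table were at 10284 and 8569.5 at day 0, at 33495 in JL019-1, at 26991 in JL027 and at 930894 in JL019-2. The 20 erythroid markers were at 9081 and 8378 at day 0 and at 12577, 535737 and 27657 in the syngeneic libraries in the order given above. The 13 B cell markers were at 66917 and 56203 at day 0, at 26990 and 21581 in JL019-1 and JL027, and at 112551 in JL019-2. Across genes, which are no replicates, the correlation of log2 values was 0.976 between the day 0 libraries, 0.973 between JL019-1 and JL027, and 0.887 and 0.883 between these and JL019-2. Values below are for all 3 syngeneic libraries, and many gene lists and single genes are given again without JL019-2. The neutrophil sum was far above both day 0 values in JL019-1 and JL027 too, and the part of this RNA in the results was not tested. In bulk samples, fewer cells of a type and less RNA per cell cannot be told apart. The plot of summed values by library shows these lists.

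**Figure D1:**
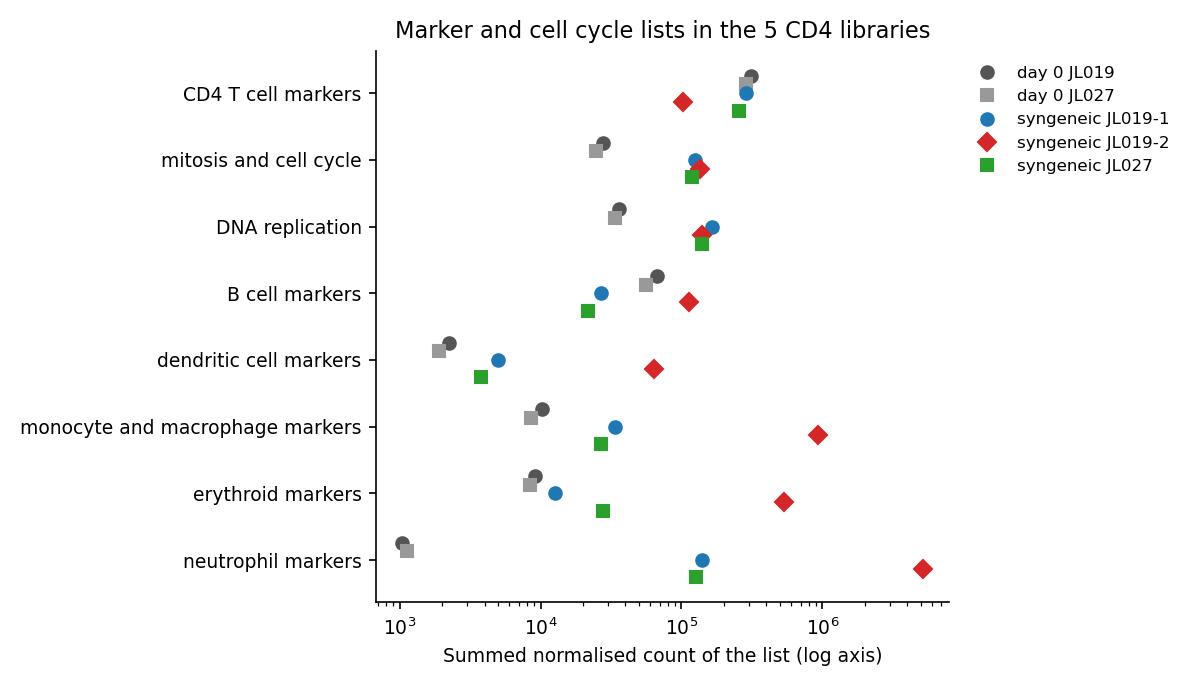
Summed normalised count (log axis) of 6 marker lists and 2 cell cycle lists in the 2 day 0 and 3 syngeneic CD4 libraries, one point per library. JL019-2 lies far above the others for neutrophil, monocyte and macrophage, dendritic and erythroid markers and lowest for CD4 T cell markers (101875). Its cell cycle sums lie beside those of JL019-1 and JL027, and the part of other cells in them was not tested.

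Of 16741 genes, 1657 were higher and 524 lower in syngeneic than in day 0 CD4 cells (limma on log2(value + 1), fitted over all 31 libraries, Benjamini-Hochberg adjusted p under 0.05). The background is thus 9.9% of genes called higher and 3.13% called lower, against which the counts of each gene group below are to be read. Without JL019-2, 1085 genes (6.48%) were higher and 243 (1.45%) lower, and 1022 (6.1%) and 183 (1.09%) were called both ways. JL019-2 was the highest of the 3 syngeneic libraries for 1228 of the 1657 higher genes and the lowest for 427 of the 524 lower genes. The higher genes made up 76% of the calls, 61.3% after centring each library on its median (1242 higher, 785 lower) and 57.7% after quantile normalisation (1777 higher, 1304 lower). A fit of the 5 libraries alone called 235 genes, 227 higher and 8 lower. Leaving out the day 0 library JL019 gave 975 calls, and leaving out day 0 JL027 gave 942. The median log2 difference of all genes was -0.04 as deposited, and quantile normalisation shifted it by -0.12. A log2 difference here is between means of log2(value + 1), with its standard error (SE) from limma, and for low values it lies closer to 0 than the ratio of the raw values.

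Genes of mitosis and the cell cycle rose together. Of 34 members, 31 rose and none fell, 31 rose without JL019-2, and 30 were called both ways. Its members had a median log2 difference of 3.62, or 3.59 without JL019-2. Birc5, which encodes survivin, a subunit of the chromosomal passenger complex, had normalised counts of 312 and 262 at day 0 and 5432, 10917 and 4829 in the syngeneic libraries, a difference of 4.52 ± 0.36 (SE) on the log2 scale with adjusted p 2.74e-10 in limma. Ube2c, a ubiquitin-conjugating enzyme of the anaphase-promoting complex, was 202 and 197 at day 0 and 3507, 8014 and 3367 after transfer (log2 difference 4.51 ± 0.40 (SE), limma adjusted p 1.87e-09). All 3 syngeneic libraries lay far above day 0 for both genes, and JL019-2 was the highest. In JL019-2 the median member of the list was at 1.03 times the level of the other syngeneic libraries. The neutrophil and erythroid marker sums were highest in that library. The part of other cells in its values here and in the DNA replication list was not tested. Mki67, which encodes the proliferation antigen Ki-67, was 309 and 330.1 at day 0 and 6899.7, 4989 and 5167 in the syngeneic libraries, with a difference of 4.13 ± 0.31 (SE) on the log2 scale and, without JL019-2, of 4.22 (limma adjusted p 1.25e-10 and 6.38e-10). Tpx2, a spindle assembly factor, went from 182 and 171 to 3076, 3313 and 3280.4. Ccna2, the S and G2 phase cyclin, went from 407 and 374 to 6328, 7572 and 7043 (log2 difference 4.15 ± 0.25 (SE), limma adjusted p 2.98e-12). For these 3 genes the syngeneic libraries lay close together and far above day 0. Nusap1, which bundles spindle microtubules, and Plk1, a mitotic kinase, had log2 differences of 4.16 ± 0.27 (SE) and 4.15 ± 0.35 (SE). The members that were not called were E2f2, Cdc25b and Ccnd2, and E2f2, a transcription factor of the G1 to S transition, was called without JL019-2. Ccnd2, a cyclin of early G1, was already 8472 and 7678 at day 0 and 10596, 8039 and 10941 afterwards. Ccnd3, another early G1 cyclin, was 8546 and 7417 at day 0 and 15259, 13649 and 11828 afterwards. Its log2 difference of 0.76 ± 0.24 (SE) was called by limma (adjusted p 0.0341). Without JL019-2 the difference was about the same, 0.75, but not called (limma adjusted p 0.0837). Kif11, in this list, has the same row of values as another gene of the table and is uncertain.

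Genes of DNA replication rose as well. Of 33 members, 30 rose, none fell, and 29 were called with and without JL019-2. Over the list, the median log2 difference was 2.31, and 2.34 without that library. All 33 had every syngeneic library above both day 0 libraries, as did 4145 of all 16741 genes. Counting either direction, 46.0% of all genes had groups that did not overlap. Rrm2, the regulated subunit of ribonucleotide reductase, which makes deoxynucleotides, was 808 and 648 at day 0 and 12136, 12666 and 12206 in the syngeneic libraries (log2 difference 4.09 ± 0.25 (SE), limma adjusted p 4.18e-12). The 3 syngeneic libraries were nearly level. Tk1, the S phase thymidine kinase, went from 255 and 170.1 to 2327, 5799 and 2273 and was highest in JL019-2. Cdc6, which loads the replicative helicase, went from 186 and 208 to 2670.3, 2583 and 2315 (difference of 3.67 ± 0.27 (SE) on the log2 scale, limma adjusted p 9.90e-11). Among the helicase subunits, Mcm5 was 1936 and 1795 at day 0 and 13207, 6711 and 8907 afterwards. The log2 differences were 2.31 ± 0.36 (SE) for Mcm5, 1.97 ± 0.40 (SE) for Mcm3 and 1.40 ± 0.37 (SE) for Mcm6. Mcm2 and Mcm4, with day 0 values of 2508 and 2137 and of 3426 and 3378, passed the test only without JL019-2 (limma adjusted p 0.0483 and 0.0262). The log2 differences of Mcm2 to Mcm7 lay below those of Rrm2, Tk1 and Tyms. Chaf1a, Gins2 and Tyms, which serve chromatin assembly, the helicase complex and thymidylate synthesis, had log2 differences of 3.47 ± 0.57 (SE), 3.45 ± 0.35 (SE) and 3.83 ± 0.33 (SE).

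The promoters of these lists were searched for motifs known as cell cycle elements, and 4 promoters that hold one are shown: for each list, the 2 genes with the largest rise, called with and without JL019-2, whose stretch holds a CHR (mitosis) or an E2F site (DNA replication). The 4 were chosen after values and motifs were seen, and genes with several listed promoters or on a left-out chromosome were passed over. The 250 bases before each start were searched on both strands, in RefSeq promoters of mouse build GRCm38.p6. The cell cycle homology region (CHR, TTTGAA), an element of genes expressed in G2 and mitosis, was in 31.03% of 29 promoters of 26 mitosis genes, in 9.38% of 32 promoters of 27 DNA replication genes and in 16.0% of all 32851 promoters. The CCAAT box (CCAAT) was in 79.3%, 56.2% and 33.9% of the same sets. An E2F site (TTTGGCGC, TTTGCCGC, TTTCGCGC or TTTCCCGC) was in 3.45% of the mitosis, 25% of the DNA replication and 1.86% of all promoters. Overlap between motifs was not removed, a match is a description of the letters, and no binding was measured. The lines give 160 bases of each promoter up to the base before the start, read 5′ to 3′ on the gene's strand, with motif matches of either strand in capitals: Ube2c at chr2:164769769-164769928 (plus strand), Mki67 at chr7:135716380-135716539 (minus strand), Cdc6 at chr11:98907991-98908150 (plus strand) and Orc1 at chr4:108579294-108579453 (plus strand).
Ube2c: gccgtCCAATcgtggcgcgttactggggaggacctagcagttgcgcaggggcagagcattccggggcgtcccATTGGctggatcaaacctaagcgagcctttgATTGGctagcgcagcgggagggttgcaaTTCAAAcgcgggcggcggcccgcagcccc
Mki67: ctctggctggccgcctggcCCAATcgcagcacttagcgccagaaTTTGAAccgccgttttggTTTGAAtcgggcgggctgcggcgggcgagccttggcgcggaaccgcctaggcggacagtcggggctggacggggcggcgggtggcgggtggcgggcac
Cdc6: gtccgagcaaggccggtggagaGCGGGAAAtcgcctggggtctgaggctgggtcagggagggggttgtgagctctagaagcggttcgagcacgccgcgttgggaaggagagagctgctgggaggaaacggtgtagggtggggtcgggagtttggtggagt
Orc1: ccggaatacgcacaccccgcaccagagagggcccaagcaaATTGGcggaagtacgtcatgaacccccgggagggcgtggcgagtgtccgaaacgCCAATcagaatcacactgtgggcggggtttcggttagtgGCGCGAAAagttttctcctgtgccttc
Ube2c and Mki67, whose values are given above, carry CCAAT boxes and CHR matches in these stretches. Cdc6 carries an E2F match and no CCAAT box there, and Orc1, the largest subunit of the origin recognition complex, carries an E2F match and CCAAT boxes. Orc1 itself was 65.4 and 51.7 at day 0 and 704, 440.03 and 566 in the syngeneic libraries (difference of 3.24 ± 0.37 (SE) on the log2 scale, limma adjusted p 3.02e-07).

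The plot of single genes by library gives these and the genes described below.

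**Figure D2:**
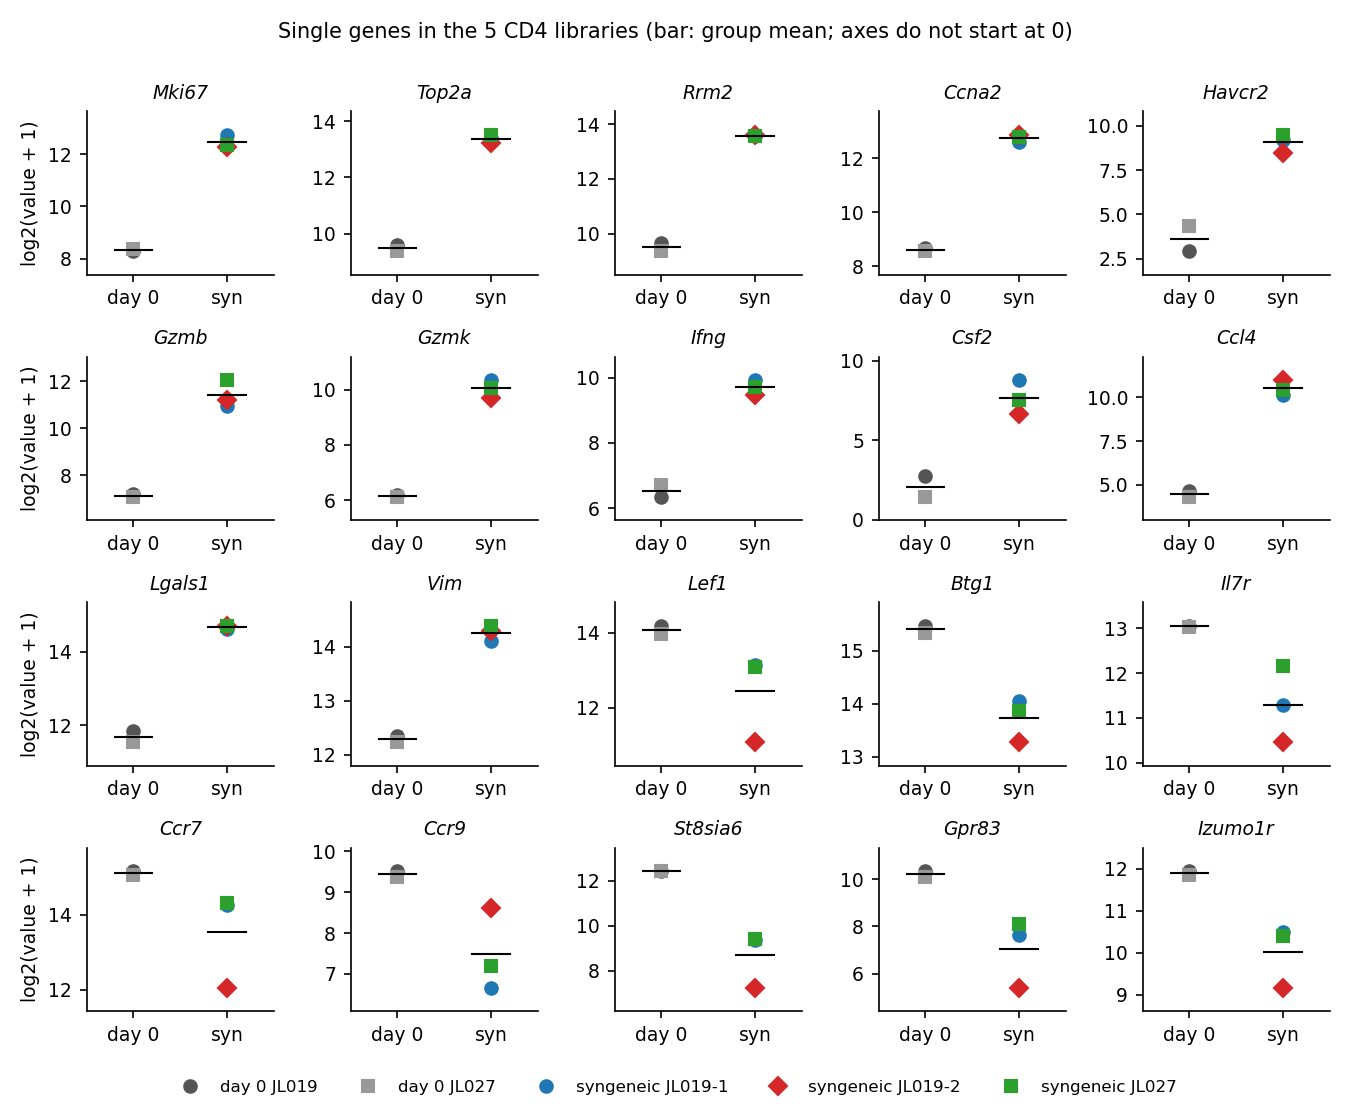
log2(value + 1) of 20 genes in the 2 day 0 and 3 syngeneic CD4 libraries (one point per library, bar at the group mean, axes not starting at 0). Cell cycle, granzyme and cytokine genes lie higher in all 3 syngeneic libraries, and for Lef1, Ccr7, St8sia6, Gpr83 and Izumo1r JL019-2 lies below the other syngeneic libraries.

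Some genes of the naive state fell. Of 26 members, 11 fell, 15 were not called and none rose. Without JL019-2 only 4 fell and 1, Igfbp4, rose. The 4 that fell both ways were Btg1, Lef1, Cd55 and Foxp1, of which the last 2 are named only for this count. Centring each library on its median gave 14 lower members, and quantile normalisation 19. The list had a median log2 difference of -1.25 with JL019-2 and -0.64 without it, and JL019-2 had a median of 0.36 times the level of the other syngeneic libraries. Btg1, an antiproliferative gene of quiescent cells, was 45607 and 41434 at day 0 and 16937, 9872 and 14901 in the syngeneic libraries (log2 difference -1.68 ± 0.24 (SE), limma adjusted p 8.02e-06, and -1.45 with adjusted p 7.10e-05 without JL019-2). Lef1, a transcription factor of naive T cells, went from 18692 and 16031 to 9077, 2165 and 8749 and differed by -1.64 ± 0.34 (SE) or, without JL019-2, -0.96 (limma adjusted p 0.00142 and 0.000948). JL019-1 and JL027 held about the same reduced level of Lef1, and JL019-2 lay well below them. The homing receptor Ccr7 was 36622 and 34189.6 at day 0 and 19451, 4246 and 20487 afterwards (limma adjusted p 0.0355, and adjusted p 0.299 without JL019-2). S1pr1, which lets T cells leave lymphoid organs, was 23645 and 23103 at day 0 and 14944, 2234 and 14292 afterwards (limma adjusted p 0.023, and adjusted p 0.155 without JL019-2). For both genes JL019-1 and JL027 were near each other and well above JL019-2. Tcf7, the transcription factor TCF1, was 33054 and 29899 at day 0 and 21962, 2423 and 17815 in the syngeneic libraries and passed the test in neither comparison (limma adjusted p 0.0599 and 0.46). Klf2 was 11906 and 10158 at day 0 and 8352, 4530.2 and 6205 afterwards and was not called either. Igfbp4, an insulin-like growth factor binding protein found in naive T cells, was 15916 and 14214 at day 0, 50386 and 43026 in JL019-1 and JL027, and 10627 in JL019-2, a log2 difference of 1.63 without the last (limma adjusted p 0.00387). Treml2, in this list, shares its row of values with another gene.

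Genes of activation and memory were split. Of 35 members, 14 rose and none fell, 13 rose without JL019-2, where 1, the chemokine gene Ccl5, fell, and 12 rose both ways. The median log2 difference was 0.69 (0.88 without JL019-2). After median centring or quantile normalisation, 2 members were called lower. The largest differences were in genes that myeloid cells also express. Anxa1, which encodes annexin A1, was 184 and 143 at day 0 and 4678, 100651 and 3145 in the syngeneic libraries, and the log2 difference was 6.13 ± 0.76 (SE) with and 4.56 without JL019-2 (limma adjusted p 1.06e-06 and 5.61e-10). Lgals3, galectin 3, was 187 and 117 at day 0 and 2322, 22227 and 2267 afterwards, with JL019-2 again the highest by far. S100a6 and Anxa2 were also highest in JL019-2, and S100a4 was 455 and 385 at day 0 and 3997, 6157 and 5095 afterwards (log2 difference 3.58 ± 0.41 (SE), limma adjusted p 2.79e-07). Ly6c2 was 893 and 723 at day 0 and 2714, 81363 and 2724 afterwards. The neutrophil and monocyte marker sums given above were highest in the same library, and their part in these genes was not tested. Members that were level between the 3 syngeneic libraries also rose. Lgals1, galectin 1, was 3642 and 2960.2 at day 0 and 25036, 26569 and 26725 afterwards (log2 difference 2.99 ± 0.35 (SE), limma adjusted p 4.09e-07), and Vim, vimentin, was 5237 and 4809 at day 0 and 17584, 19991 and 21486 afterwards (1.97 ± 0.20 (SE)). Cd44, the classical surface marker of activated and memory T cells, was 2291 and 2413 at day 0 and 3232, 4979 and 3367 afterwards, above day 0 in all 3 libraries but not called (log2 difference 0.69 ± 0.25 (SE), limma adjusted p 0.0722). Cd69, Icos and Il2ra, which mark recent activation, were not called in either comparison. Il2ra, the high-affinity interleukin 2 receptor chain, was 1981 and 1923 at day 0 and 2002, 411 and 2288 afterwards.

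The common gamma chain cytokines are the family of interleukins 2, 7 and 15. Of 25 of their receptors and feedback genes, 2 rose and 1 fell, shares near those of all genes, and 5 rose without JL019-2. After quantile normalisation 3 rose and 3 fell. Its members had a median log2 difference of -0.27 (0.21 without JL019-2). Il7r, the interleukin 7 receptor, was 8523 and 8355 at day 0 and 2489.9, 1402 and 4538 in the syngeneic libraries, below day 0 in all 3 (log2 difference -1.75 ± 0.47 (SE), limma adjusted p 0.0117). Without JL019-2 the difference was -1.33 and did not pass (adjusted p 0.0916). Socs2, a feedback inhibitor of cytokine signalling that STAT5 induces, was 269.8 and 204 at day 0 and 769, 460.1 and 579 afterwards (log2 difference 1.32 ± 0.30 (SE), limma adjusted p 0.00301). The kinase gene Pim1 was 667 and 557 at day 0 and 2476, 1045 and 1486 afterwards and was also called with and without JL019-2. Cish, Bcl2 and Il9r were called only without it. Bcl2, the survival factor that interleukin 7 maintains, was 5189.9 and 4569 at day 0, 7463 and 7751 in JL019-1 and JL027 and 2637 in JL019-2 (log2 difference without it 0.64, limma adjusted p 0.049). Among 25 immediate early genes of TCR signalling, with a median log2 difference of 0.44 (0.37 without JL019-2), 2 rose, a share near that of all genes, and only Ier3 did so without JL019-2 as well, at 15.9 and 14.2 at day 0 and 323, 6186 and 84.7 afterwards. The 3 syngeneic libraries disagreed in this list: Fos, a subunit of the AP-1 factor, was 3915 and 3522 at day 0 and 26656, 44466 and 2628 afterwards, high in both JL019 libraries and below day 0 in JL027. Nr4a1, a reporter of recent TCR signals, was 1424 and 1230.1 at day 0 and 4073, 1298 and 894 afterwards and did not pass (limma adjusted p 0.782). Egr2 and Jund share their rows of values with other genes.

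Of 23 T helper lineage factors, 4 rose with and without JL019-2, namely Runx2, Irf8, Eomes and Batf. Ikzf2, the factor Helios, fell with JL019-2 only, and 3 members were called lower after median centring and 4 after quantile normalisation. Over the list, the median log2 difference was -0.13 (0.23 without JL019-2). Runx2 was 79.1 and 65.7 at day 0 and 377, 911 and 351 afterwards (log2 difference 2.76 ± 0.39 (SE), limma adjusted p 7.43e-06). Eomes, a T-box factor of cytotoxic and memory cells, was 139 and 172 at day 0 and 554, 253 and 463 afterwards (1.37 ± 0.31 (SE), limma adjusted p 0.00336), and Batf, an AP-1 family factor of effector cells, 1536 and 1219 at day 0 and 3005, 2032 and 3105 afterwards (0.96 ± 0.30 (SE), limma adjusted p 0.0339). Eomes and Batf were lowest in JL019-2 among the syngeneic libraries, and Irf8, at 8505, was highest there. The lineage-defining Tbx21, Gata3 and Bcl6 passed in neither comparison. Tbx21, which encodes T-bet of the Th1 lineage, was 566 and 535 at day 0 and 1346, 312 and 845 afterwards.

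T helper cytokine and chemokine genes rose in part. Of 23 of the 25 listed genes that are in the table, 11 rose and none fell, 11 rose without JL019-2, and 9 rose both ways. The list had a median log2 difference of 1.41, and 1.44 without JL019-2. Ccl3 and Ccl4, chemokines of activated lymphocytes and myeloid cells, had normalised counts of 3.76 and 9.28 and of 23.6 and 18.6 at day 0, 919, 4341 and 1472 and 1129, 2041 and 1358 afterwards. Both were highest in JL019-2, and their log2 differences were 8.01 ± 0.58 (SE) and 6.06 ± 0.41 (SE), or 7.38 and 5.82 without that library (limma adjusted p 5.04e-11 for Ccl3 and 1.74e-11 for Ccl4 with all 3). Il3, a growth factor of myeloid precursors that T cells secrete, was listed at 0 in both day 0 libraries and at 292, 36.6 and 235 in the syngeneic ones. Csf2, which encodes GM-CSF, was 5.64 and 1.68 at day 0 and 441, 98.3 and 181 afterwards (log2 difference 5.57 ± 0.68 (SE), limma adjusted p 7.53e-07). Il3 and Csf2 were both lowest in JL019-2 among the 3 syngeneic libraries. Ifng, the Th1 cytokine interferon gamma, was 80.1 and 103 at day 0 and 970.04, 713 and 837 afterwards (3.18 ± 0.38 (SE), limma adjusted p 6.14e-07). Il10, an anti-inflammatory cytokine, was 7.50 and 1.68 at day 0 and 67.4, 74.1 and 71.7 afterwards (3.92 ± 0.56 (SE), limma adjusted p 9.88e-06), nearly level in the 3 syngeneic libraries. Il22 and Il13, listed at 0 in both day 0 libraries, were at 48.4, 17.2 and 0.884 and at 14.2, 3.97 and 7.08. The Th2 cytokine Il4 was 38.9 and 30.5 at day 0 and 11.8, 56.7 and 30.8 afterwards, with overlapping groups, and Il17f of the Th17 lineage also overlapped.

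Of 19 genes of cytotoxicity, 10 rose, none fell, and 9 rose with and without JL019-2. The median log2 difference was 1.28 (1.02 without JL019-2). Gzmb, the protease granzyme B, was 145 and 135 at day 0 and 1996, 2373 and 4272 in the syngeneic libraries (log2 difference 4.28 ± 0.32 (SE), limma adjusted p 1.02e-10). Gzmk, granzyme K, was 72.9 and 68.8 at day 0 and 1296, 837 and 1073 afterwards (3.87 ± 0.37 (SE), limma adjusted p 9.44e-09). Gzma was 28.8 and 28.7 at day 0 and 282, 2612 and 293 afterwards, and Gzmm 22.2 and 18.2 at day 0 and 83.5, 677 and 117 afterwards. Gzma and Gzmm were highest in JL019-2, where the sum of 10 NK cell markers was 73565 against 1893 and 1652 in the other syngeneic libraries and 712 and 710.1 at day 0. Gzmb and Gzmk were not raised in JL019-2 above both other syngeneic libraries. Klrg1, a receptor of terminally differentiated cells, was 119 and 89.4 at day 0 and 558, 347 and 984 afterwards (2.47 ± 0.46 (SE), limma adjusted p 0.000375). Prf1, perforin, the pore-forming partner of the granzymes, was 1098 and 1155 at day 0 and 1131, 541 and 1157 afterwards and was not called (log2 difference -0.34 ± 0.34 (SE), limma adjusted p 0.556). Of 14 inhibitory receptors, 2 rose with and without JL019-2 and none fell, although 1 rose and 2 fell after median centring and 2 rose and 4 fell after quantile normalisation. The list median was -0.25 (-0.17 without JL019-2). Havcr2, which encodes TIM-3, was 6.51 and 19.1 at day 0 and 582, 353 and 721 afterwards (difference of 5.43 ± 0.37 (SE) on the log2 scale, limma adjusted p 2.21e-11), and Tigit was 159.7 and 151 at day 0 and 392, 205 and 539 afterwards (1.18 ± 0.35 (SE), limma adjusted p 0.026). Pdcd1, which encodes PD-1, was 1015 and 941 at day 0, 1863 and 2016 in JL019-1 and JL027 and 579.9 in JL019-2, and passed only without the last (log2 difference 0.99, limma adjusted p 0.0287). Lag3, Ctla4 and Btla were not called in either comparison.

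Of 21 homing receptors and related genes, 2 rose and 3 fell, where 9.9% of all genes rose and 3.13% fell, and without JL019-2 5 rose and 2 fell. Its members had a median log2 difference of 0.18 (0.21 without JL019-2). Fut7, the fucosyltransferase that makes selectin ligands, was 85.4 and 78.5 at day 0 and 597, 537 and 288 afterwards (log2 difference 2.45 ± 0.26 (SE), limma adjusted p 7.29e-08). Itga2, an integrin chain that binds collagen, was 33.8 and 33.2 at day 0 and 95.6, 58.9 and 233 afterwards (1.68 ± 0.44 (SE), limma adjusted p 0.00988). Ccr9, the receptor for homing to the small intestine, fell from 729.9 and 657 to 100.1, 388 and 147 (-1.95 ± 0.40 (SE), limma adjusted p 0.00114, and -2.50 without JL019-2). The lowest values of Ccr9 were in JL019-1 and JL027, not in JL019-2. Cxcr6 fell from 4175 and 3761 to 2496, 1294 and 2040.2 with and without JL019-2. Ccr4, Gpr15 and Itgb1 rose only without JL019-2, with limma adjusted p 0.00195, 0.0283 and 0.00332. Itgb7, the partner chain of the gut-homing integrin, was not called.

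Genes induced by type I interferon rose in part. Of 28 members, 10 rose and none fell (1 fell after median centring or quantile normalisation), and 8 rose with and without JL019-2. Over the list, the median log2 difference was 0.78 (0.75 without JL019-2). Rsad2, the antiviral enzyme viperin, was 155 and 156 at day 0 and 653, 2048 and 549 afterwards (log2 difference 2.53 ± 0.47 (SE), limma adjusted p 0.000402), and Mx1 was 109 and 100.2 at day 0 and 418, 784 and 288 afterwards (2.12 ± 0.39 (SE), limma adjusted p 0.000396). Isg15, a ubiquitin-like modifier, was 509 and 473 at day 0 and 2113, 2896 and 1083 afterwards (1.93 ± 0.36 (SE), limma adjusted p 0.000392). For all 3 genes JL019-2 was highest and JL027 lowest of the syngeneic libraries, and all lay above day 0. Stat2 and Irf9, which transmit the interferon signal, were not called, and Irf7 was 2769.6 and 2617 at day 0 and 4461, 3661 and 2307 afterwards, with overlapping groups.

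Metabolic genes were followed in 4 lists. Of 20 glycolysis genes, 9 rose, the same number without JL019-2, and 9 rose both ways. The list had a median log2 difference of 0.54 (0.61 without JL019-2). Hk2, the inducible hexokinase, was 25.6 and 38.3 at day 0 and 222, 510.1 and 110.05 afterwards (2.85 ± 0.52 (SE), limma adjusted p 0.000278). Tpi1, triose phosphate isomerase, was 1544 and 1446 at day 0 and 5192, 12174 and 5296 afterwards (2.22 ± 0.31 (SE), limma adjusted p 7.32e-06). Both were highest in JL019-2, whereas Ldha, lactate dehydrogenase A, was 30571 and 28158 at day 0 and 62902, 50495 and 58552 afterwards (0.96 ± 0.20 (SE), limma adjusted p 0.00161) and was lowest there. Slc2a1 and Slc2a3, the glucose transporters GLUT1 and GLUT3, were not called. Of 17 genes of one-carbon and serine metabolism, 9 rose and 7 rose both ways, with a median log2 difference of 0.76 (0.78 without JL019-2). Psat1, of serine synthesis, was 1077 and 916 at day 0 and 3879, 2394 and 3846 afterwards (1.73 ± 0.28 (SE), limma adjusted p 6.29e-05). Phgdh, the first enzyme of that route, was 2961 and 2791 at day 0 and 8509, 5182 and 6698 afterwards (1.21 ± 0.24 (SE), limma adjusted p 0.000724). Mthfd2, of the mitochondrial folate cycle, differed by 1.05 ± 0.19 (SE) (limma adjusted p 0.000368). These 3 genes were lowest in JL019-2 among the syngeneic libraries and still above day 0 there. Of 26 genes of sterol and fatty acid synthesis 2, Elovl6 and Sc5d, rose, a share near that of all genes, with a list median of 0.02 (0.34 without JL019-2). Of 17 genes of amino acid transport and stress, 2 rose, again a share near that of all genes, and none without JL019-2 (median log2 difference 0.57, 0.50 without JL019-2). Asns, asparagine synthetase, was 167 and 216 at day 0 and 426, 3102 and 428 afterwards, with JL019-2 far above the others (limma adjusted p 0.0107, and adjusted p 0.0869 without it).

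Of 21 genes of survival and apoptosis, 4 rose and 3 of them both ways. Pmaip1, the death-promoting BH3 protein NOXA, was 106 and 76.6 at day 0 and 615, 834 and 543 afterwards (2.84 ± 0.38 (SE), limma adjusted p 2.92e-06). Bcl2a1d, a survival protein of the BCL2 family with close paralogs, was 272 and 272 at day 0 and 968, 937 and 1063 afterwards (1.86 ± 0.39 (SE), limma adjusted p 0.00156). The 3 syngeneic libraries lay near each other for both genes. The list median was 0.37 (0.37 without JL019-2). Of 18 genes of Treg identity, 4 rose both ways (Il10, Ebi3, Capg and Socs2), and Izumo1r and Gpr83 fell both ways, with Lrrc32 and Ikzf2 falling only with JL019-2. The list median was -0.08 (0.36 without JL019-2). Foxp3, which defines regulatory T cells, was 1145 and 978 at day 0 and 490.2, 44.9 and 905 in the syngeneic libraries, all below day 0, and was not called (log2 difference -1.95 ± 0.78 (SE), limma adjusted p 0.0995, and -0.67 without JL019-2). Gpr83 fell from 1299 and 1101 to 199, 41.2 and 270.4 (-3.18 ± 0.64 (SE), limma adjusted p 0.000938), and Izumo1r, the folate receptor 4 of regulatory and anergic T cells, from 3936 and 3659 to 1440.4, 572 and 1339 (-1.88 ± 0.35 (SE), limma adjusted p 0.000393). Lrrc32, the TGF-beta docking receptor GARP, was 946 and 802 at day 0 and 119.5, 20.9 and 198 afterwards, with limma adjusted p 0.0077 and, without JL019-2, 0.0702.

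The plot of list members shows these groups side by side.

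**Figure D3:**
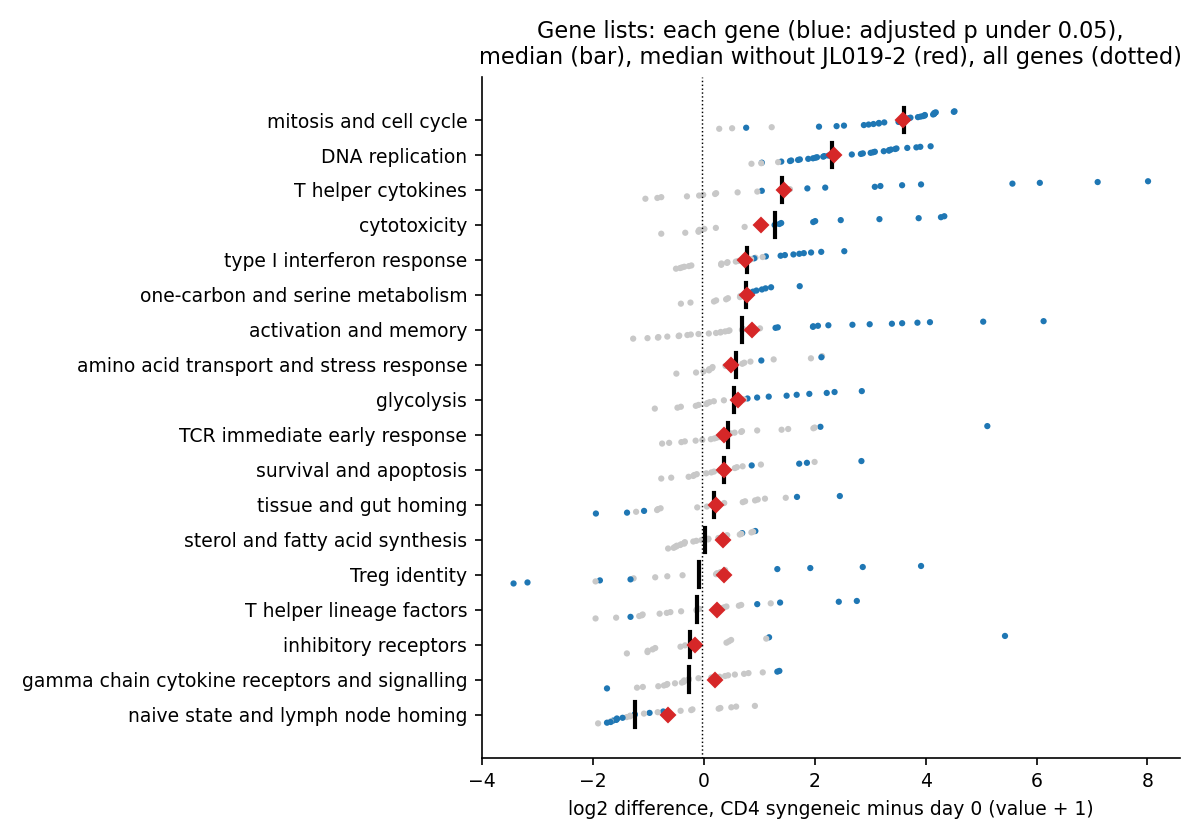
log2 difference (CD4 syngeneic minus day 0, on log2(value + 1)) of each member of 18 gene lists, in blue where limma's adjusted p was under 0.05, with the list median (bar), its median without JL019-2 (red) and the median of all genes (dotted line, -0.04). Mitosis and DNA replication lie highest, and the naive list moves from -1.25 to -0.64 when JL019-2 is left out.

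The list counts changed with the libraries fitted and their weights. Gene-by-gene array weights, which give less weight to JL019-2, called 23 activation (21 up, 2 down), 18 interferon (17 up, 1 down), 11 gamma chain (9 up, 2 down), 11 lineage factor (8 up, 3 down), 10 homing (6 up, 4 down), 6 inhibitory receptor (3 up, 3 down) genes and, all up, 7 survival, 6 immediate early, 6 sterol and 4 amino acid genes. In a fit of the 5 libraries alone, 27 mitosis, 23 DNA replication, 5 cytokine, 4 activation, 3 survival, 2 cytotoxicity and 1 inhibitory receptor genes were called, and no member of the other 11 lists. Leaving out the day 0 libraries JL019 and JL027 in turn gave 29 and 29 mitosis genes, 28 and 28 DNA replication genes, 8 and 8 cytokine genes, 4 and 4 naive state genes, 4 and 3 one-carbon genes, 7 and 6 interferon genes, 2 (1 up, 1 down) and 3 (1 up, 2 down) homing genes, 2 and 3 lineage factors, 1 and 0 gamma chain genes, 6 and 5 Treg genes, 1 and 1 inhibitory receptors, 2 and 1 immediate early genes, and no sterol or amino acid gene. Without JL019-1, 17 naive state, 5 gamma chain, 4 inhibitory receptor and 1 immediate early genes were called, and without JL027, 9 lineage factor, 8 immediate early, 6 inhibitory receptor and 5 amino acid genes. Leaving the cell type markers aside, the other list counts moved by at most 1.5 times on leaving out either of these. Of the called genes named so far, Ccnd3, Ccr7, S1pr1, Il7r, Ikzf2, Il22, Asns and Lrrc32 were called neither without JL019-2 nor without either day 0 library, with the highest limma adjusted p, 0.299, for Ccr7 without JL019-2. Mcm6, Pim1, Batf, Tigit, Itga2, Sc5d and Elovl6 passed without JL019-2 and were lost without either day 0 library. Without day 0 JL019 and without day 0 JL027, their log2 differences kept the direction. They were 1.41 and 1.38 for Mcm6, 1.49 and 1.23 for Pim1, 1.13 and 0.80 for Batf, and 1.22 and 1.13 for Tigit. For Itga2 they were 1.69 and 1.67, for Sc5d 0.63 and 0.75, and for Elovl6 0.99 and 0.86. Eomes and Cxcr6 were lost without day 0 JL019 (adjusted p 0.0784 and 0.0808), and Socs2 and Ly6c2 without day 0 JL027 (adjusted p 0.0929 and 0.0772). Pim1, Batf and Tigit were lost without JL019-1 (adjusted p 0.0883, 0.074 and 0.0571), as were Ccnd3, Ikzf2 and Il22 (0.0825, 0.0803 and 0.125). Batf, Tigit, Itga2 and Sc5d were lost without JL027 (0.0811, 0.107, 0.058 and 0.116).

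Outside the lists, the 10 genes with the largest log2 difference among those called both ways were Wfdc21, Itgb2l, Fpr1, Lrg1, Trem3, Ly6a2, Ifitm6, Hp, C3 and Cebpe, all highest in JL019-2. Cebpe, a transcription factor of granulocyte maturation, was 0.937 and 0 at day 0 and 128, 1679.5 and 81.3 in the syngeneic libraries, and Fpr1, a chemotactic receptor of neutrophils, was listed at 0 in both day 0 libraries and at 145, 4062 and 179.7 afterwards. These genes moved with the neutrophil markers, of which 18 of 18 rose, 16 also without JL019-2. The part of that RNA in them was not tested. Trem3 shares its row of values with another gene. Among genes chosen after values were seen because JL019-2 lay within 2-fold of the other syngeneic libraries, the largest rise was in Gcg, the glucagon precursor gene, at 1.76 and 5.49 at day 0 and 236, 167 and 350.4 afterwards (log2 difference 5.83 ± 0.77 (SE), limma adjusted p 2.84e-06). Of the next genes by size of rise, H1f5, a linker histone gene, was 67.8 and 44.8 at day 0 and 1352, 3010.2 and 2287 afterwards, and Pclaf, a PCNA-binding factor, 329 and 320.3 at day 0 and 7169, 11601 and 7726 afterwards. Ifitm1, an interferon-induced membrane protein gene, was 86.7 and 112 at day 0 and 3083, 2877 and 971 afterwards and was lowest in JL027.

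The 10 largest falls outside the lists were in St8sia6, Rgs11, Xkrx, Slc28a2b, Gpm6b, Carns1, Pou6f1, Ephx1, Atp8a2 and Tdrp. St8sia6, a sialyltransferase gene, fell from 5537 and 5509 to 669, 151 and 689, by -3.74 ± 0.85 (SE) on the log2 scale (limma adjusted p 0.00309) and by -3.02 without JL019-2 (adjusted p 0.0271). JL019-1 and JL027 were level with each other, and JL019-2 was lower still. Atp8a2, a phospholipid flippase gene, was 434 and 609.7 at day 0 and 110.4, 88.0 and 107 afterwards (-2.33 ± 0.46 (SE), limma adjusted p 0.000764), with the 3 syngeneic libraries near each other. Ephx1, epoxide hydrolase 1, was 4196 and 3672 at day 0 and 1085, 402 and 909 afterwards, and Rgs11, a regulator of G protein signalling, 514 and 457 at day 0 and 94.2, 37.4 and 81.6 afterwards. Each of the 10 was lowest in JL019-2. Carns1 shares its row of values with another gene, and was not called without either day 0 library (adjusted p 0.0701 and 0.0507). Pou6f1 was not called without day 0 JL027 (adjusted p 0.0726).

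The change in CD4 cells was set against the same change in CD8 cells, which shares no library with it. The difference of the changes was called for 607 of 16741 genes (3.63%), 511 of them higher and 96 lower in CD4 cells (356 and 163 after median centring, 311 and 130 after quantile normalisation), and 430 were also called without JL019-2. A fit of the 4 groups alone called 32, 29 higher and 3 lower. Without CD4 syngeneic JL019-1, 707 were higher and 176 lower. Leaving out CD4 day 0 JL019, CD4 day 0 JL027 and CD8 day 0 JL019 gave 276, 280 and 263 calls. Of the 34 mitosis genes 23 and of the 33 DNA replication genes 11 were among those with a higher change in CD4 cells, and none had a lower one. The median log2 change of the mitosis list was 3.62 in CD4 and 1.39 in CD8 cells, and of the DNA replication list 2.31 and 1.32. Ccne2, a cyclin of the G1 to S transition, was 103 and 103 in CD4 cells at day 0 and 1231, 2261 and 1606 afterwards, against 698 and 801 at day 0 and 1299, 1024 and 1123 afterwards in CD8 cells, a difference of the log2 changes of 3.37 ± 0.38 (SE) (limma adjusted p 2.18e-05). Mki67 was 309 and 330.1 in CD4 and 1386 and 1361 in CD8 cells at day 0, and 4139.9, 5014 and 2041 in syngeneic CD8 cells, with a difference of 2.79 ± 0.44 (SE) (limma adjusted p 0.000393). The day 0 levels of both genes were higher in CD8 than in CD4 cells. The erythroid marker sum of the CD8 day 0 libraries, 73518 and 86517 against 9081 and 8378 in CD4 day 0 libraries, moved with that difference. So did the B cell sum, 99774 and 132194 against 66917 and 56203, and the plasma cell sum, 20794 and 32090 against 12180 and 10094. For 14 of 20 erythroid, 12 of 18 neutrophil and 4 of 20 monocyte and macrophage markers the change was called higher in CD4 cells. In the lower direction none of these markers was called. The part of these RNAs was not tested. Havcr2 (difference 3.45 ± 0.53 (SE), limma adjusted p 0.000247), Ccl3 (5.18 ± 0.82 (SE), limma adjusted p 0.000363) and Gzmk (2.71 ± 0.52 (SE), limma adjusted p 0.00292) rose more in CD4 cells. In the other direction, Fasl, the death ligand of cytotoxic cells, was 258 and 231 in CD8 cells at day 0 and 2184, 2112 and 3359.7 afterwards, while in CD4 cells it was 905 and 797 at day 0 and 569, 319 and 679.6 afterwards (difference -4.12 ± 0.49 (SE), limma adjusted p 2.24e-05). Cish, a target of STAT5, changed by 1.06 ± 0.43 (SE) in CD4 and by 4.22 in CD8 cells (difference -3.16 ± 0.61 (SE), limma adjusted p 0.00308), and Cxcr3 by 0.09 ± 0.25 (SE) and 2.07 (-1.98 ± 0.35 (SE), limma adjusted p 0.00147).

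The TCR tables describe the clones of the same libraries. A clonotype is one combination of V and J gene with the amino acids of the CDR3 loop, and clonality, 1 minus the normalised Shannon entropy, is 0 when all clonotypes are equally abundant. The 5 CD4 libraries held 11386 to 15643 TRB and 14560 to 25272 TRA reads, and clonality was computed at 8194 TRB and 6870 TRA reads. TRB clonality was 0.00790 and 0.00730 at day 0 and 0.0356, 0.0443 and 0.0776 in JL019-1, JL019-2 and JL027. All 3 syngeneic libraries lay above both day 0 libraries, with a difference of means of 0.0449 (two-sided exact permutation p = 0.2, the smallest that 3 against 2 libraries allow). At the same depth, 6982 and 7047 TRB clonotypes were seen at day 0 and 5761, 5099 and 3576 in the syngeneic libraries. The 100 most abundant TRB clonotypes held 4.81% and 4.62% of reads at day 0 and 13.8%, 15.8% and 23.0% after transfer. The largest clonotype held 0.0790% (Wilson 95% interval 0.0416% to 0.15%) and 0.0829% (0.0474% to 0.145%) at day 0. It held 1.34% (1.17% to 1.54%), 1.47% (1.29% to 1.68%) and 4.84% (4.5% to 5.2%) in JL019-1, JL019-2 and JL027, with the gene pairs TRBV31 and TRBJ2-7, TRBV16 and TRBJ1-3, and TRBV17 and TRBJ2-4. None of these 3 clonotypes had a read in another of the 5 CD4 libraries, each of 11386 TRB reads or more. PCR reads without molecular identifiers are not independent molecules, so intervals and limits cover counting error only. Drawing equal reads does not make the number of T cells behind each library equal. The part of cell number in clonality and clonotype counts was not tested. TRA clonality showed the same order of groups, 0.0422 and 0.0397 at day 0 and 0.0804, 0.0631 and 0.121 afterwards, with a difference of means of 0.0471 (two-sided exact permutation p = 0.2). It was 0.0308 without JL027. In CD8 cells, TRB clonality was 0.00855 and 0.00733 at day 0 and 0.0108, 0.0108 and 0.0161 in syngeneic recipients, below each CD4 syngeneic value. The difference between CD4 and CD8 cells was not tested.

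**Figure D4:**
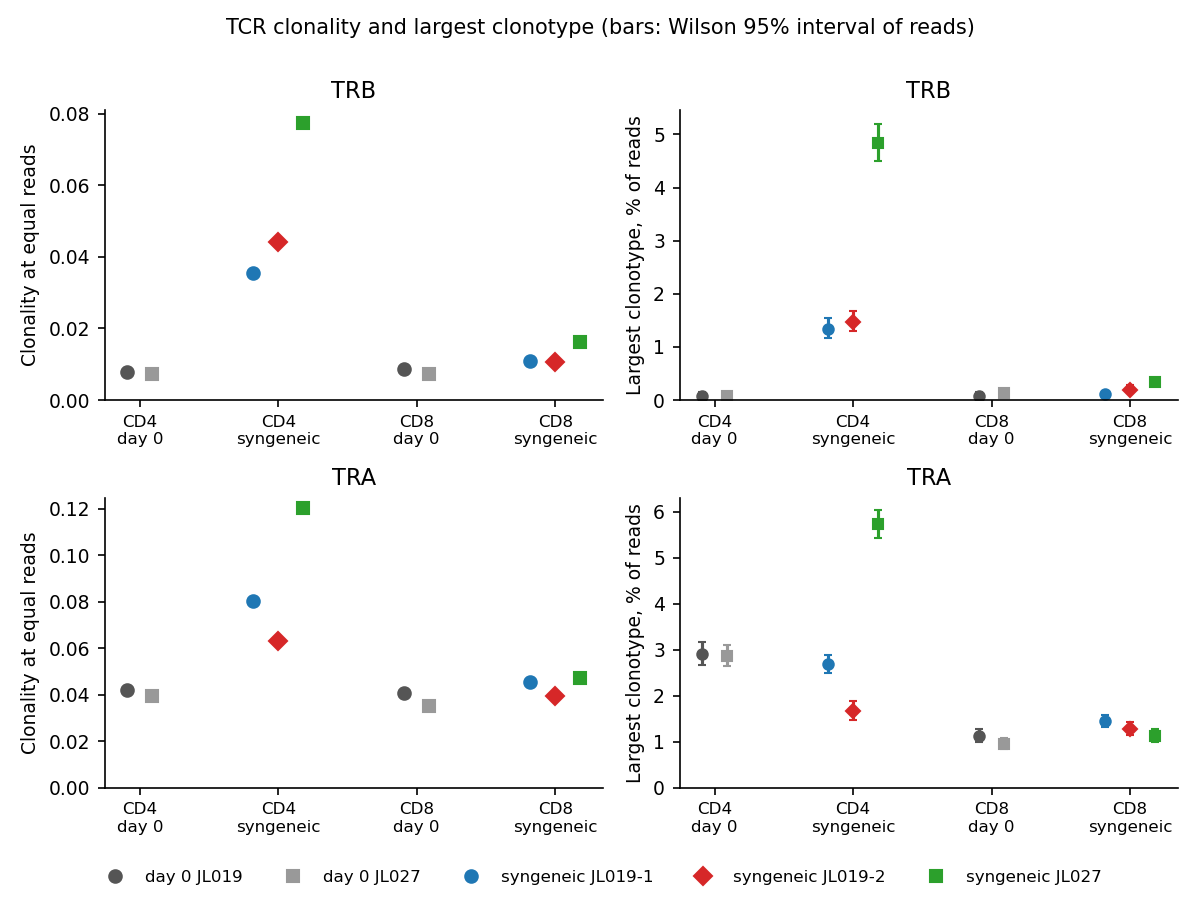
Clonality at equal reads (left) and share of reads of the largest clonotype with its Wilson 95% interval (right), for TRB (top) and TRA (bottom), one point per library of CD4 and CD8 cells at day 0 and in syngeneic recipients. CD4 syngeneic TRB clonality lies between 0.0356 and 0.0776, above all day 0 and all CD8 libraries.

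V gene use was set side by side for the groups. Of 17 TRBV genes at 1% of reads or more, 8 (47.1%) had syngeneic libraries that did not overlap with day 0, 6 above and 2 below, which is a description without a test. TRBV16 held 39.6% and 39.4% of reads at day 0 and 31.3%, 36.3% and 28.2% in the syngeneic libraries. TRBV31 held 16.9% in both day 0 libraries and 20.1%, 18.4% and 20.7% afterwards. TRBV13-3 was the other gene below day 0, and TRBV14, TRBV19, TRBV2, TRBV26 and TRBV3 lay above. By share of clonotypes in place of reads, 11 of 17 did not overlap, 9 above and 2 below: TRBV31 and TRBV13-3 overlapped, and TRBV1, TRBV13-2, TRBV15, TRBV20 and TRBV5 did not. Without JL019-2, 11 of 16 did not overlap by reads, 8 above and 3 below, and leaving out another library gave 8 to 11 of 17. Single clones set some shares: TRBV17 was 3.81% and 3.83% at day 0, 2.56% and 3.91% in JL019-1 and JL019-2, and 8.95% in JL027, where one clonotype held 4.84%. Of 15 TRAV genes, 3 (20%) did not overlap, all below day 0: TRAV8D-2, TRAV9D-3 and TRAV11. Random labels would separate 3 from 2 libraries for 20% of genes, and smaller groups more often. By share of clonotypes, 12 of 20 did not overlap, 7 above and 5 below, TRAV8D-2 among them, whereas TRAV9D-3 and TRAV11 overlapped. By reads, leaving out 1 library at a time gave 4 to 9 genes, with 9 (4 above, 5 below) without JL019-1, 6 without day 0 JL027 and 5 without JL027. TRAV11 held 4.02% and 4.10% at day 0 and 2.69%, 2.77% and 0.76% afterwards, and in JL019-1 one TRAV11 and TRAJ48 clonotype made up 1.94%. TRAV13D-2 held 9.49% in JL027 against 2.30% to 2.92% in the other 4 libraries, with one clonotype of TRAJ50 at 5.72%. Shares of reads come from nested PCR, whose primers can favour some V genes.

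**Figure D5:**
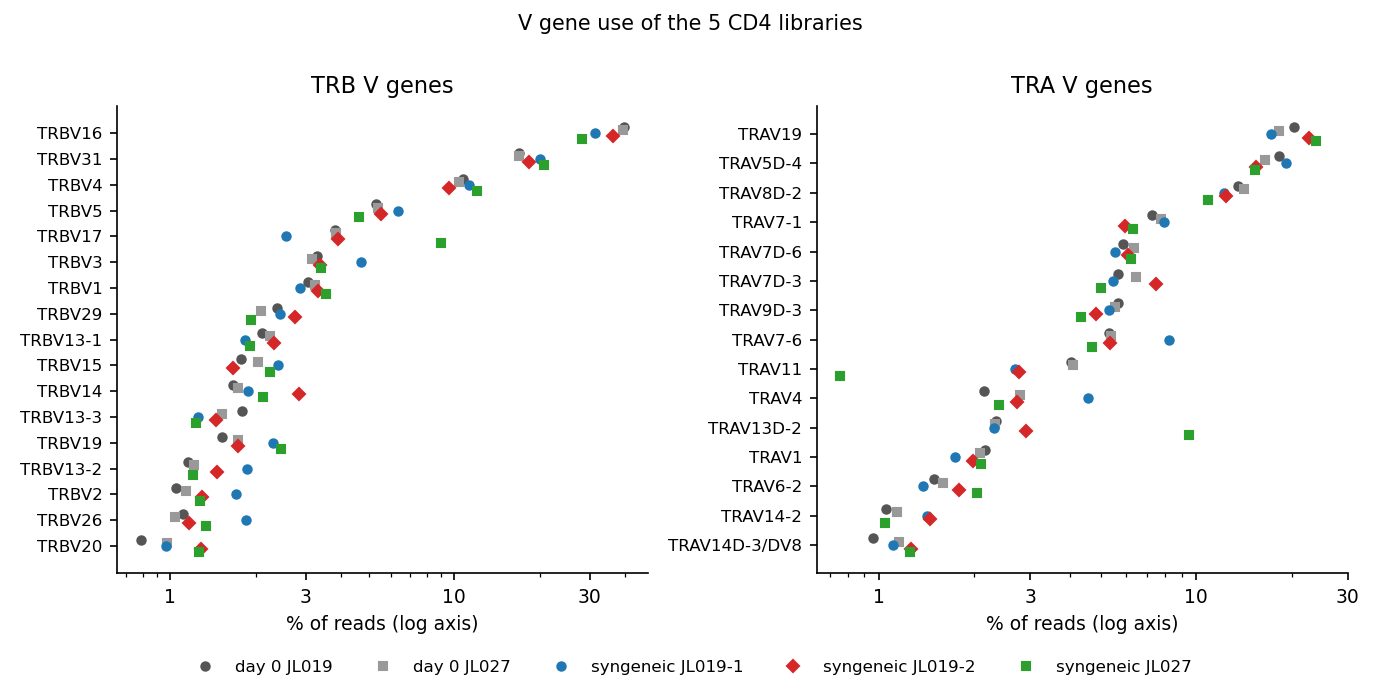
Share of reads (percent, log axis) of 17 TRBV and 15 TRAV genes in the 2 day 0 and 3 syngeneic CD4 libraries, one point per library. TRBV16 is lower in all 3 syngeneic libraries, and TRBV17 and TRAV13D-2 stand out in JL027.

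TRAV11 joined to TRAJ18 is the alpha chain of invariant NKT cells, T cells that recognise lipids on CD1d. This pair held 638 reads, or 3.52% (Wilson 95% interval 3.26% to 3.79%), and 710 reads, or 3.44% (3.20% to 3.70%), at day 0. It held 7 reads (0.0277%, 0.0134% to 0.0572%) in JL019-1, 295 reads (2.03%, 1.81% to 2.27%) in JL019-2 and 20 reads (0.0924%, 0.0598% to 0.143%) in JL027. JL019-1 and JL027 were thus far below day 0, and JL019-2 lay between. TRAV1 joined to TRAJ33, the alpha chain of MAIT cells, held 29 and 46 reads at day 0 and 0, 30 and 42 in JL019-1, JL019-2 and JL027, where 0 reads allow a share of up to 0.0119%.

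Sharing was computed over all reads, without drawing to equal depth, so it depends on how many clonotypes the other library holds. The TRB clonotypes numbered 9259 and 11385 at day 0 and 9441, 7824 and 5009 in JL019-1, JL019-2 and JL027. Of the TRB reads of JL019-1, 4.49% lay in clonotypes also found in JL019-2 and 1.98% in clonotypes of JL027, and 6.12% and 7.74% in clonotypes of the day 0 libraries JL019 and JL027. Of those of JL019-2, 5.47% lay in clonotypes of JL019-1 and 1.70% in clonotypes of JL027, and 7.50% and 6.94% in clonotypes of the day 0 libraries. Of those of JL027, 5.31% and 2.96% lay in clonotypes of JL019-1 and JL019-2, and 5.66% and 6.91% in clonotypes of the day 0 libraries. Of the TRA reads, 12.3% of JL019-1 and 23.7% of JL027 lay in clonotypes of JL019-2, 20.9% of JL019-2 and 27.4% of JL027 in clonotypes of JL019-1, and 8.18% of JL019-1 and 10.96% of JL019-2 in clonotypes of JL027. With the CD8 library of JL019-1, the CD4 library JL019-1 shared 894 TRB clonotypes, which held 22.1% of its reads, against 4.74% and 4.85% in clonotypes of the CD8 syngeneic libraries JL019-2 and JL027. The CD4 libraries JL019-2 and JL027 had 5.77% and 5.24% of their TRB reads in clonotypes of the CD8 library of the same name. The largest TRB clonotype of the CD4 library JL019-1, with 210 reads, was the largest of its CD8 library too, with 25 reads. Of the TRA reads of the CD4 library JL019-1, 16.7% lay in clonotypes shared with the CD8 library of JL019-1 and 21.0% and 17.4% with the others. Clonotypes present in both cell types and carry-over between these libraries cannot be told apart from the tables. TRB results of JL019-1 rest in part on these shared clonotypes, and without JL019-1 the difference in TRB clonality was 0.0533.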

How the data were processed

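Bulk RNA and TCR sequences were measured in sorted mouse T cells. Per the labels, RNA was taken up in TRIzol and cleaned with RNeasy MinElute, cDNA was made with the SMARTer v4 kit, RNA libraries with Nextera XT, and TCR libraries by nested PCR. The submitters' processing notes name FastQC 0.11.7, kallisto, DESeq2 and the builds GRCm38 and mm10, with no role or order. The RNA table deposited by the authors holds a normalised signal per gene (normalised counts, not whole numbers), so no count model was used and the RNA depth is unknown. The TCR tables deposited by the authors hold read counts per clonotype.

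Values were taken as log2(value + 1). The filter on a mean of at least 1 removed no gene. Groups were compared with limma 3.58.1 in R 4.3.3 (10 group means over 31 libraries, trended and robust moderation, 21 residual degrees of freedom), with Benjamini-Hochberg adjustment over all 16741 genes at 0.05. The script was tested on simulated data. Rows of 396 genes are identical to that of another gene. TCR reads were drawn 20 times to 8194 (TRB) or 6870 (TRA) with Python 3.11.15 and numpy 2.4.6, pandas 2.3.3 and scipy 1.17.1, and figures drawn with matplotlib 3.10.9. Intervals are Wilson 95% and the limit for 0 reads is 3 reads of the total.

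The libraries, gene lists and marker lists were chosen with earlier results of these data known. Named genes are up to 6 called members with the largest log2 difference per list, its defining gene, and, outside the lists with a group mean of at least 100, the 10 largest rises and falls called with and without JL019-2. Other named genes were chosen after their values were seen. Label prefixes JL019 and JL027 were checked as pairs: 11 of 45 pairs of groups had deviations correlated above 0.1 (range -0.33 to 0.44), so they were not treated as pairs. Alternatives were other pseudocounts, filters, scalings, fits and left-out libraries. Array weights estimated jointly did not converge and gene-by-gene weights, chosen after seeing the data, were used. Some items are not reported here.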

Additional observations from a re-analysis of the deposited data

Results flagged for a closer look

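Genes whose syngeneic change differed most between CD4 and CD8 cells, by the limma test of the difference itself, are given as log2 differences (CD4 change minus CD8 change), all also called without JL019-2. Ell2, an elongation factor gene, was 256 and 183 in CD4 day 0 libraries and 245, 636 and 274 in CD4 syngeneic ones, and 325 and 421 at day 0 and 30.1, 18.7 and 37.3 afterwards in CD8 cells, a difference of 4.39 ± 0.45 (SE) (limma adjusted p 4.16e-06). Ccne2 differed by 3.37 ± 0.38 (SE) (limma adjusted p 2.18e-05) and Sgo1, the cohesin protector of mitosis, by 3.11 ± 0.38 (SE) (limma adjusted p 2.24e-05). Both rose in CD4 cells. Scin, an actin-severing protein gene, was 355 and 289.6 at day 0 and 529, 126 and 416 afterwards in CD4 cells and 365 and 322 at day 0 and 7.56, 10.8 and 5.29 afterwards in CD8 cells (5.24 ± 0.62 (SE), limma adjusted p 2.24e-05). Nqo1, a quinone reductase gene, was 65.5 and 67.7 at day 0 and 107, 483 and 121 afterwards in CD4 cells and 257 and 299 at day 0 and 10.5, 23.5 and 24.6 afterwards in CD8 cells (5.31 ± 0.64 (SE), limma adjusted p 2.24e-05). The CD8 day 0 libraries had the higher erythroid, B cell and plasma cell marker sums. In CD8 cells the 13 B cell markers went from 99774 and 132194 at day 0 to 27374, 23966 and 29752 in the syngeneic libraries. The 5 plasma cell markers went from 20794 and 32090 to 3391, 2581 and 3262. The part of these RNAs in these differences was not tested.

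In the other direction, Fasl differed by -4.12 ± 0.49 (SE) (limma adjusted p 2.24e-05), Asb2 by -3.10 ± 0.47 (SE) (limma adjusted p 0.000247) and Itm2a by -2.93 ± 0.45 (SE) (limma adjusted p 0.000247). Itm2a, a membrane protein gene of T cells, was 5305 and 4720.4 at day 0 and 2019, 831 and 2080.2 afterwards in CD4 cells and 2461 and 3119 at day 0 and 5806, 4776 and 9441 afterwards in CD8 cells. Armc7 differed by -2.03 ± 0.32 (SE) (limma adjusted p 0.000365) and Plekhf1 by -2.64 ± 0.43 (SE) (limma adjusted p 0.000495).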

How the results depend on the processing

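The 2181 genes called between syngeneic and day 0 CD4 cells became 235 in a fit of these 5 libraries alone, 4210 with gene-by-gene array weights (weight of JL019-2 0.112) and 942 to 2733 with 1 library left out. The 607 calls of the difference between CD4 and CD8 cells became 32 in a fit of those 4 groups alone, 1206 with the weights and 263 to 883 with 1 library left out. Other pseudocounts, filters, scalings, plain moderation and a minimum log2 change of 1 gave 1804 to 3081 and 441 to 628 calls. With the label prefix as a replicate block, 2201 and 645 genes were called. Of 199 called genes followed, 80 were called under every alternative, 119 were lost in the fit of the 5 libraries alone, 45 and 50 without the day 0 libraries JL019 and JL027, 27 without JL019-2, and none reversed. TRB clonality differed by 0.0323 to 0.0533 and TRA clonality by 0.0308 to 0.0595 with 1 library left out, and both kept their direction in every alternative. The 3 TRAV genes without overlap became 12 by share of clonotypes, 6 above a minimum of 0.1% and 4 to 9 with 1 library left out. The causes were not tested. RNA depth is unknown, and 3 against 2 libraries cannot give an exact p below 0.2.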

Other observations

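Neutrophil transcripts were also higher in the CD8 syngeneic libraries. The 18 neutrophil markers summed to 4526 and 3771 normalised counts in the CD8 day 0 libraries JL019 and JL027, and to 59918, 82051 and 95283 in the CD8 syngeneic libraries JL019-1, JL019-2 and JL027. These 3 sums lay below those of the CD4 syngeneic libraries. The 5 plasma cell markers moved the other way in JL019-1 and JL027, from 12179.6 and 10094 in CD4 day 0 libraries to 4391 and 3484, and were at 13735 in JL019-2.

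The TRA repertoire of JL019-2 was set beside day 0. Its Morisita-Horn overlap, which is 1 for identical repertoires, was 0.528 and 0.517 with the day 0 libraries JL019 and JL027. The overlap was 0.0692 and 0.0581 for JL019-1, 0.0945 and 0.0750 for JL027, and 0.828 between the day 0 libraries. In TRB it was 0.0275 and 0.0220 for JL019-2, 0.0272 and 0.0276 for JL019-1, and 0.00500 and 0.00498 for JL027. The index is weighted by abundant clonotypes, and the largest TRA clonotype of JL019-2 and of both day 0 libraries was of the invariant TRAV11 and TRAJ18 pair.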
